A study of Mus musculus with 8 samples.

Results

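The nuclear genes for the subunits of the mitochondrial respiratory chain were read on 8 mouse arrays. The members are every non-control probe whose gene symbol starts as those of complex I (Nduf followed by a, b, c, s or v and a number), complex III (Uqcr), complex IV (Cox4 to Cox8) or complex V (Atp5), or is one of the 4 Sdh genes of complex II. The rule uses names only and no measured value. It found 103 probes for 83 genes among the 41174 probes of the array. The complex was set by the symbol alone, so Ndufa4, for example, is counted under complex I whatever complex its protein is placed in. By this rule there are 36 genes of complex I, 4 of complex II, 8 of complex III, 18 of complex IV and 17 of complex V. Of the 83 genes, 81 were tested, because at least 1 group had both arrays well above the local background. Of these 81, 79 were well above background on all 8 arrays. Cox7b2 and Cox8c, isoforms known from testis, were not well above background on any array and have only a bound there.

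RNA came from a line of Keap1-/- mouse embryonic fibroblasts (MEFs) and a WT line (TR in the labels, letters left unexplained). Each line was profiled as tumours grown from injected cells in nu/nu mice (allografts) and from culture dishes. The 4 groups are Keap1-/- allografts, WT allografts, Keap1-/- dishes and WT dishes, with 2 arrays each. Per the labels, 3000000 Keap1-/- cells or 10000000 WT cells were injected and tumours were taken at 100 to 150 mm3. Each genotype is 1 line here, so a difference between the genotypes cannot be told apart from a difference between these lines. Nude mice lack T cells but keep macrophages, vessels, muscle and fat, so tumour RNA can hold RNA of the host. The labels do not say whether replicates 1 and 2 are separate cultures or animals, so p-values measure only the spread between these arrays, which may be technical.

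The respiratory chain lies in the inner mitochondrial membrane. Complex I takes electrons from NADH and complex II from succinate, both pass them through ubiquinone to complex III, and cytochrome c carries them to complex IV, which reduces oxygen. Complexes I, III and IV pump protons, and complex V, the ATP synthase, uses the gradient to make ATP. Most subunits are nuclear genes; a small set of core subunits comes from mitochondrial DNA, and of 13 such genes listed here 0 were found on this array by accession. Keap1 marks the transcription factor NRF2 for degradation, and fibroblasts in culture are known to rely much on glycolysis while still respiring.

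All levels below are log2 intensities relative to the 75th percentile of the same array, so 0 is the level of that percentile, and a log2 difference of 1 is a doubling. A gene was called changed at a Benjamini-Hochberg adjusted p below 0.05 in limma, adjusted over all 22919 targets tested on the array. On the arrays, 69.7% to 74.7% of probes were well above background in allografts and 60.6% to 64.5% in dishes. The median intensity was 106.1 to 137.4 in allografts and 44.8 to 61.9 in dishes, while 75th percentiles ran over 1084 to 1546, so the shape of the intensity distribution differed between tumours and dishes. Log2 Keap1 was 1.00 and 0.92 in Keap1-/- allografts against 2.85 and 2.46 in WT allografts. In the dishes it was 2.37 and 2.22 for Keap1-/- cells against 3.32 and 2.99 for WT cells. It was lower in the Keap1-/- line in allografts (-1.69 ± 0.17 SE, limma adjusted p = 0.000722) and in dishes (-0.86 ± 0.17, adjusted p = 0.0197). Whether its probe lies in the deleted part of the gene was not tested. With 2 arrays a group, precision is limited by their number.

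The first question is how growth as a tumour compares with growth in a dish. In Keap1-/- allografts, 56 of the 81 subunit genes were called lower than in Keap1-/- dishes and 4 were called higher, and in WT allografts 64 were called lower than in WT dishes and 4 higher. The median log2 difference was -0.46 in Keap1-/- cells and -0.51 in WT cells, which is 27.5% and 30.0% less scaled intensity. Between 36 and 55 members were called lower in Keap1-/- cells when 1 array was left out, with 36 without the first Keap1-/- dish array, and between 44 and 63 in WT cells. Over all targets, 29.1% were called lower and 35.8% higher in Keap1-/- cells, and 32.2% lower and 35.9% higher in WT cells, with medians of 0.03 and -0.02. The subunit genes are bright on this array, however: 76 of the 81 lie above the 75th percentile. Among all 8013 targets that bright, 49.2% were called lower and 16.6% higher in Keap1-/- cells, and 61.5% lower and 12.6% higher in WT cells, with medians of -0.33 and -0.53. Set against these bright targets, the median of the subunit genes lies lower in Keap1-/- cells (-0.46 against -0.33) and about level in WT cells (-0.51 against -0.53).

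This fall depends on how the arrays are scaled to each other, and much more so in WT than in Keap1-/- cells. With the array median as the zero point, the median of the members was -1.33 in Keap1-/- cells and -1.54 in WT cells, and 76 and 77 of them were called lower. With quantile normalization it was -0.17 in Keap1-/- cells, with 26 called lower and 5 higher, and 0.11 in WT cells, with 8 called lower and 20 higher. With no scaling it was -0.43 in Keap1-/- cells, with 22 called lower and 5 higher, and -0.13 in WT cells, with 1 called lower and 4 higher. The median of all targets moved with the scaling too, to -0.84 and -1.04 with the array median, -0.13 and -0.12 with quantiles, and 0.05 and 0.36 with no scaling, each pair being Keap1-/- cells and then WT cells. With the 75th percentile, the array median and no scaling the members lay 0.49 below all targets in both lines. These settings shift every target of an array by the same amount, so their match follows from arithmetic and adds no support. Under quantile normalization the members lay 0.03 below all targets in Keap1-/- cells and 0.23 above them in WT cells. Of the 56 members called lower in Keap1-/- cells, 55 kept a negative value under all 4 scalings, the exception being Uqcrh. Of the 64 called lower in WT cells, 26 did. Which scaling is nearest to the RNA content of the cells was not tested.

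**Figure D1:**
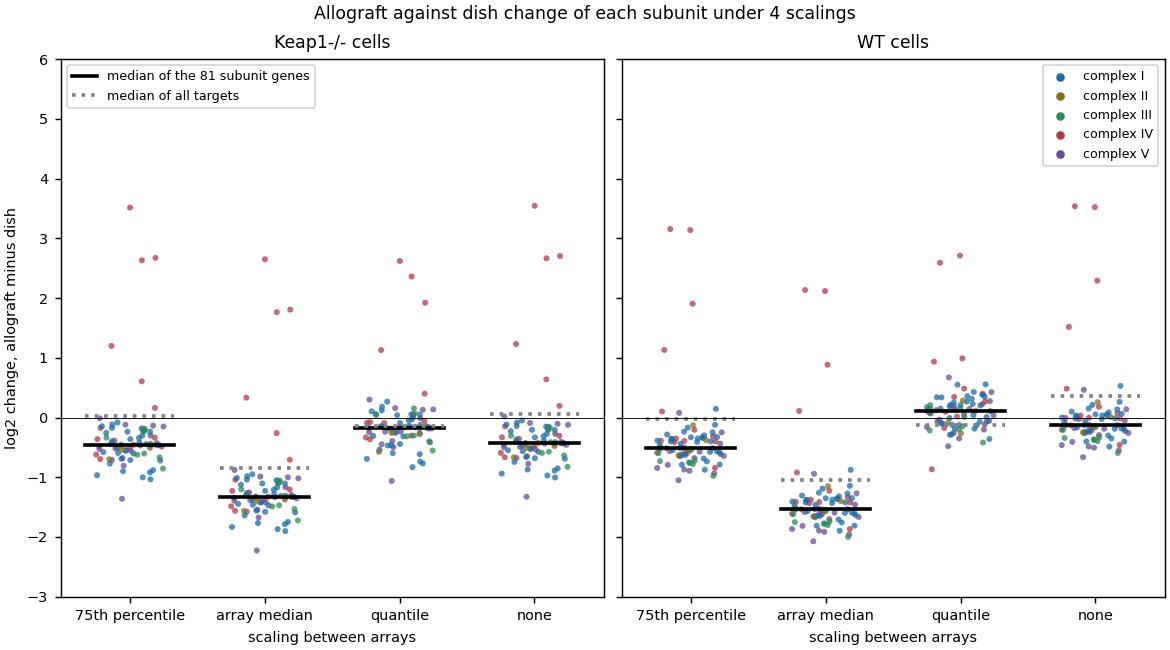
Log2 change of each of the 81 subunit genes, allograft minus dish, in Keap1-/- cells (left) and WT cells (right) under 4 scalings between arrays; points are genes coloured by complex, the solid bar is their median and the dotted bar the median of all targets. The Keap1-/- median stays below 0 under all 4 scalings, while the WT median is -0.51 with the 75th percentile and 0.11 with quantile normalization; the few points far above the rest are tissue isoforms of complex IV.

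Some falls kept their call under all of these choices. In Keap1-/- cells, 21 members were called lower under all 16 alternatives tried, and in WT cells 1 was. The alternatives were 4 of the scaling and background correction, 3 of the filter and probe choice, the replicate block, and each array left out. Leaving out an array of the other line keeps the log2 changes of a line as they were, so it tests only the calls. In the main fit, 49.2% of bright targets were called lower in Keap1-/- cells and 61.5% in WT cells. Their share called lower under all 16 is not given here, so these counts are not read as particular to the subunit genes. Atp5g1 was the gene called in both lines under all 16. It encodes the c subunit of the ATP synthase, which forms the rotating ring in the membrane. Atp5g1 was at 3.51 and 3.49 in Keap1-/- allografts against 4.93 and 4.78 in Keap1-/- dishes, and at 3.98 and 3.87 in WT allografts against 5.13 and 4.82 in WT dishes. Both allograft groups lay below both dish groups without overlap. It was 2.57-fold lower in Keap1-/- cells (-1.36 ± 0.13 SE as log2 change, limma adjusted p = 0.000275), and WT cells showed a 2.07-fold lower level (-1.05 ± 0.13, adjusted p = 0.000728). Its smallest change under any alternative was -1.06 in Keap1-/- cells and -0.48 in WT cells, the second with quantile normalization.

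**Figure D2:**
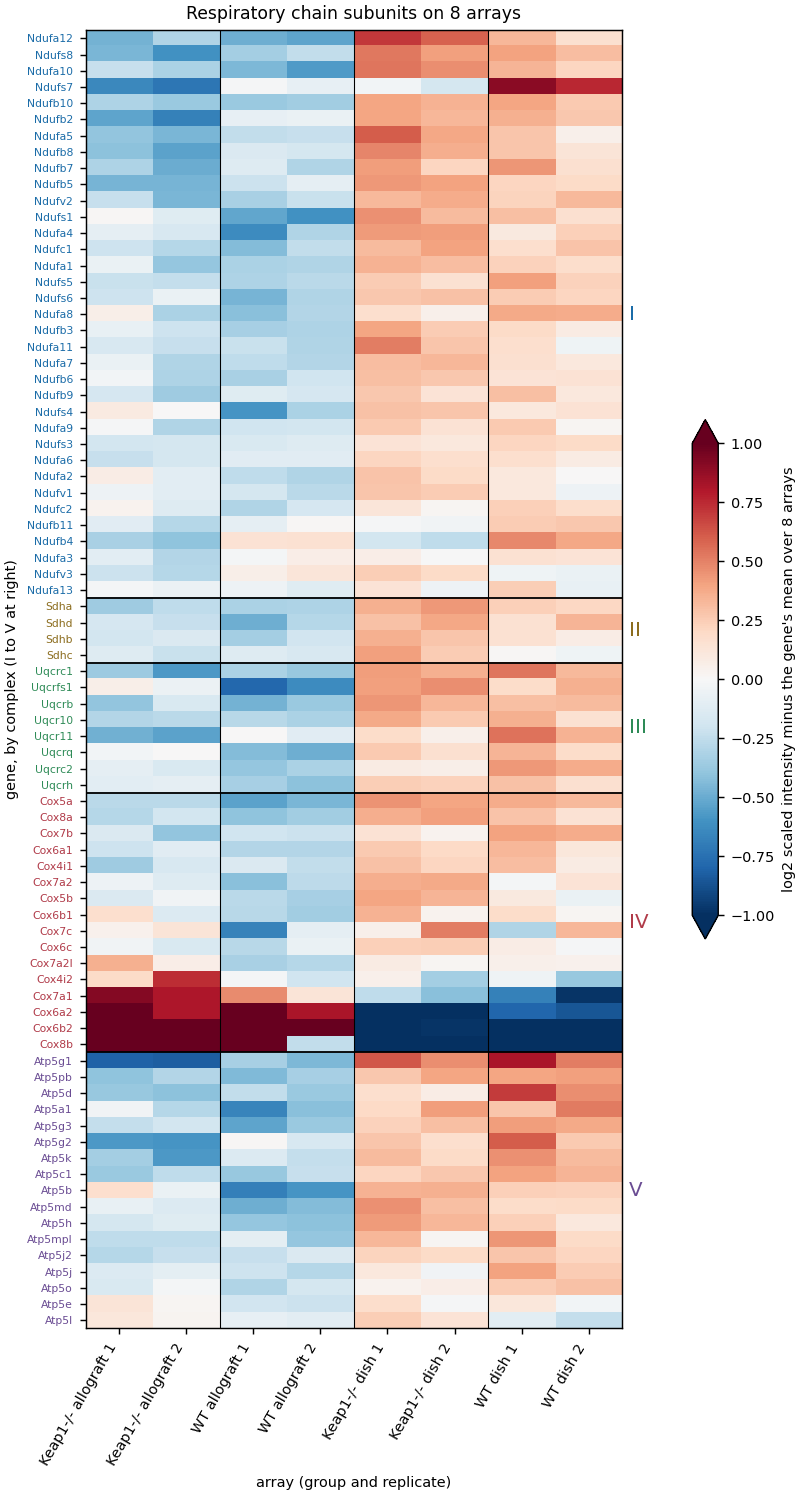
Log2 scaled intensity of 80 of the 81 tested subunit genes (rows, grouped by complex I to V) on each of the 8 arrays (columns), minus the mean of the gene over all arrays, with the colour scale ending at 1 in either direction. With the 75th percentile as the zero point most rows are lower on the 4 allograft arrays at left; Cox7a1, Cox6a2, Cox6b2 and Cox8b of complex IV run the other way, and under quantile normalization the WT median turns to 0.11.

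Complex I was lower as a group in allografts on the 75th percentile scale. Of its 36 genes, 26 were called lower and 0 higher in Keap1-/- cells, with a median of -0.46, and 30 were called lower and 0 higher in WT cells, with a median of -0.42; with quantile normalization this became 14 lower and 0 higher (median -0.18) and 3 lower and 12 higher (0.15). Of the bright targets, 49.2% were called lower in Keap1-/- cells and 61.5% in WT cells. Ndufa12, an accessory subunit, was at 4.63 and 4.79 in Keap1-/- allografts against 5.80 and 5.69 in Keap1-/- dishes. It was 2.05-fold lower there (-1.03 ± 0.11, limma adjusted p = 0.000412) and 1.69-fold lower in WT cells (-0.76 ± 0.11, adjusted p = 0.00139), where the call ended with quantiles and with no scaling. Ndufs8, which holds iron-sulfur clusters of the peripheral arm, was at 1.50 and 1.35 in Keap1-/- allografts against 2.49 and 2.37 in Keap1-/- dishes. The 4 arrays did not overlap, and the fall was called under all 16 alternatives in Keap1-/- cells (-1.002 ± 0.10, adjusted p = 0.000343). Ndufb2, a membrane arm subunit, was at 3.60 and 3.46 in Keap1-/- allografts against 4.53 and 4.47 in Keap1-/- dishes, a change of -0.97 ± 0.09 (adjusted p = 0.000274).

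In WT cells the largest falls of complex I were those of Ndufs7, Ndufs1 and Ndufa10. Ndufs1, the largest subunit of the peripheral arm, was at 3.38 and 3.30 in WT allografts against 4.20 and 4.06 in WT dishes (-0.79 ± 0.11, limma adjusted p = 0.00101). Ndufa10 was at 2.24 and 2.12 in WT allografts against 3.03 and 2.91 in WT dishes (-0.79 ± 0.10, adjusted p = 0.000711). All 3 WT calls ended with no scaling (adjusted p = 0.151 for Ndufs1, 0.134 for Ndufa10 and 0.0796 for Ndufs7), and that of Ndufs7 also with quantiles (0.117). Ndufa13, Ndufa9 and Ndufa3 were called in neither line.

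Complex II is the smallest complex and the one that also belongs to the citrate cycle. Sdha, the flavoprotein that binds succinate, was at 0.96 and 1.06 in Keap1-/- allografts against 1.67 and 1.74 in Keap1-/- dishes, and at 1.00 and 1.00 in WT allografts against 1.55 and 1.52 in WT dishes. The allograft values of the lines overlapped, and all lay below all dish values. It fell in Keap1-/- cells (-0.70 ± 0.09, limma adjusted p = 0.000746, called under all 16 alternatives) and in WT cells (-0.53 ± 0.09, adjusted p = 0.00214, ending with no scaling at 0.544). Sdhb, the iron-sulfur subunit, changed by -0.48 in Keap1-/- cells and -0.38 in WT cells, both called. Of the membrane anchors, Sdhd changed by -0.54 and -0.64, both called. Sdhc, the other anchor, was called lower in Keap1-/- cells (-0.51 ± 0.10, adjusted p = 0.00443) and not in WT cells (-0.13 ± 0.10, adjusted p = 0.281), and the difference between the lines missed the threshold (-0.38 ± 0.14, adjusted p = 0.0822). In WT cells the value of Sdhb was 0.11 with quantile normalization and 0.01 with no scaling, so its sign is not settled there.

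Complex III had the lowest median in WT cells. All 8 of its genes that match the symbol rule were called lower there, with a median of -0.73. In Keap1-/- cells 6 of 8 were called lower, with a median of -0.52. With quantile normalization the medians were -0.07 in WT and -0.23 in Keap1-/- cells, and 1 and 4 genes were called lower. Among bright targets the share called lower was 61.5% in WT cells and 49.2% in Keap1-/- cells. Uqcrc1, a core protein, was at 4.61 and 4.40 in Keap1-/- allografts against 5.39 and 5.33 in Keap1-/- dishes (-0.85 ± 0.12, limma adjusted p = 0.00123, called under all 16 alternatives). In WT cells it was at 4.65 and 4.60 in allografts against 5.51 and 5.30 in dishes (-0.78 ± 0.12, adjusted p = 0.00166, ending with quantiles and with no scaling). Uqcrfs1 encodes the Rieske iron-sulfur protein, which passes electrons on to cytochrome c1. It was at 4.56 and 4.44 in Keap1-/- allografts against 4.91 and 4.97 in Keap1-/- dishes, and at 3.72 and 3.88 in WT allografts against 4.69 and 4.86 in WT dishes. The WT allografts were the low group, 1.97-fold below WT dishes (-0.98 ± 0.11, adjusted p = 0.000472), and the call ended with no scaling at 0.0585.

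In complex IV the genes split. Of the 16 tested, 8 (50%) were called lower and 4 higher in each line. Of the bright targets, 49.2% were called lower in Keap1-/- cells and 61.5% in WT cells. The share in complex IV is thus about level with these in Keap1-/- cells and below them in WT cells. The median was -0.27 in Keap1-/- cells and -0.37 in WT cells. With quantile normalization it was -0.08 in Keap1-/- cells, with 2 lower and 4 higher, and 0.20 in WT cells, with 1 lower and 4 higher. The subunits used in most tissues lay on the falling side. Cox5a was at 5.95 and 5.95 in Keap1-/- allografts against 6.67 and 6.62 in Keap1-/- dishes, and at 5.68 and 5.76 in WT allografts against 6.59 and 6.54 in WT dishes. Its change was -0.69 ± 0.08 in Keap1-/- cells (limma adjusted p = 0.000653, called under all 16 alternatives) and -0.85 ± 0.08 in WT cells (adjusted p = 0.000269, not called with quantiles or with no scaling). Cox4i1, the common form of subunit 4, changed by -0.51 ± 0.12 (adjusted p = 0.0124) and -0.39 ± 0.12 (adjusted p = 0.0311). In WT cells Cox4i1 was at 0.34 with quantiles, so its sign is not settled there, and in Keap1-/- cells its call ended with quantiles and with no scaling. Cox8a changed by -0.62 and -0.59 and Cox7b by -0.36 and -0.59, all 4 called, and in WT cells both turned positive with quantiles, to 0.11 and 0.02. Cox7c and Cox6b1 were called in neither line.

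Complex V had 12 of 17 genes called lower in Keap1-/- cells (median -0.48) and 15 of 17 in WT cells (median -0.58), with none called higher in either; with quantile normalization these became 4 lower and 1 higher (-0.18) and 2 lower and 3 higher (0.04). The bright targets called lower were 49.2% in Keap1-/- cells and 61.5% in WT cells. Beside Atp5g1, Atp5g2, which encodes the same c protein from another gene, changed by -0.81 ± 0.14 in Keap1-/- cells (limma adjusted p = 0.00326) and -0.51 ± 0.14 in WT cells (adjusted p = 0.02), where the value was 0.19 with quantiles and the call ended. Atp5a1, the alpha subunit, was at 5.94 and 6.18 in WT allografts against 6.88 and 7.12 in WT dishes (-0.94 ± 0.16, adjusted p = 0.00274), and Atp5d, the delta subunit, at 3.80 and 3.67 against 4.75 and 4.51 (-0.89 ± 0.11, adjusted p = 0.000756). Both WT calls ended with no scaling, and that of Atp5a1 also with quantiles. Atp5k, a subunit of the membrane part, changed by -0.71 in Keap1-/- cells and -0.58 in WT cells. Atp5e and Atp5l were called in neither line.

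Across the 81 genes the change in Keap1-/- cells and that in WT cells had a Pearson r of 0.91 and a Spearman rho of 0.46. Without the 5 tissue isoforms described next, r was 0.36 and rho 0.34 over 76 genes, so the high r rests on those 5. Genes are not independent replicates, the points share arrays within a line, and no p is given. Of the 81, 51 were called lower in both lines, 4 higher in both, 5 lower in Keap1-/- cells alone, 13 lower in WT cells alone and 8 in neither. A call in 1 line alone does not show that the lines differ. Bright targets were called lower at 49.2% in Keap1-/- and 61.5% in WT cells. Their share lower in both is not given here, so the joint counts are not read as particular to these genes.

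The 4 genes called higher in both lines were all isoforms of complex IV that are known for restricted tissues. Cox6a2, Cox7a1 and Cox8b are the forms of striated muscle, the last 2 also being known from brown fat, and Cox6b2 is known from testis. Cox6a2 was at -2.27 and -3.08 in Keap1-/- allografts against -5.08 and -5.62 in Keap1-/- dishes, and at -2.54 and -3.07 in WT allografts against -4.68 and -4.74 in WT dishes. It was 6.38-fold higher in Keap1-/- cells (log2 change 2.67 ± 0.33 SE, limma adjusted p = 0.000785) and 3.75-fold higher in WT cells (1.90 ± 0.33, adjusted p = 0.003). Cox7a1 was at 0.15 and 0.04 in Keap1-/- allografts against -1.02 and -1.19 in Keap1-/- dishes, and at -0.30 and -0.64 in WT allografts against -1.45 and -1.75 in WT dishes, 2.30-fold and 2.19-fold higher (adjusted p = 0.00121 and 0.00141).

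Cox8b was well above background on all 4 allograft arrays and on none of the 4 dish arrays. Its levels were -4.07 and -5.35 in Keap1-/- allografts and -3.80 and -6.96 in WT allografts, so the replicates of a group differed widely. Set against the lowest signal well above background in dishes, its group mean was at least 3.99-fold higher in Keap1-/- allografts (limma adjusted p = 0.0258). In WT allografts the mean was at least 2.35-fold higher (adjusted p = 0.0359). That WT bound rests on the first array, since the second, at -6.96, lies below the limit used for dishes. The calls held under 10 and 7 of 15 alternatives. Cox8b passed the filter only through the allografts, where it is high. The filter therefore favoured a rise, and these p-values and calls add no support for it. Cox6b2 was at -0.28 and -0.40 in Keap1-/- allografts against -3.20 and -2.74 in Keap1-/- dishes, and at -0.25 and -0.36 in WT allografts against -3.61 and -3.28 in WT dishes. The 4 allograft arrays lay close together and more than 2 log2 units above every dish array. It was 6.19-fold higher in Keap1-/- cells (2.63 ± 0.19, adjusted p = 8.27e-05) and 8.80-fold higher in WT cells (3.14 ± 0.19, adjusted p = 3.89e-05), called under all 16 alternatives in both lines. Cox4i2, the hypoxia and lung form of subunit 4, was well above background on 1 Keap1-/- allograft array, both WT allograft arrays and no dish array, and was not called (adjusted p = 0.0676 and 0.733).

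With the array median as the zero point, Cox7a1 was called in neither line, Cox6a2 kept its call in Keap1-/- cells (1.81) and lost it in WT cells (0.88), and Cox8b kept it in Keap1-/- cells (2.65) and lost it in WT cells (2.13). Quantile normalization ended the Cox6a2 call in WT cells (0.99) and both Cox8b calls.

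Markers of other cell types rose in the same tumours. The summed level of 14 skeletal muscle markers, in units of the 75th percentile of the array, was 25.2 and 5.11 in Keap1-/- allografts, 5.68 and 1.67 in WT allografts, and 0.592 to 0.629 on the 4 dish arrays. Of 12 tested, 10 rose in Keap1-/- cells, and in WT cells 7 rose and 1 fell. Over all targets 35.8% were called higher in Keap1-/- cells and 35.9% in WT cells. Acta1, skeletal actin, was at 2.22 and -0.11 in Keap1-/- allografts, 0.09 and -1.40 in WT allografts, -4.03 and -3.49 in Keap1-/- dishes and -5.42 and -5.38 in WT dishes. Casq1 and Pvalb were not well above background on any array, and Myh2, Ckm and Myh4 on no dish array. The last 3 were tested only because of the allografts, so the filter favoured a rise. The same holds for Adipoq and Cfd, among others, in the adipocyte list below. In each allograft group the array with the higher muscle sum was also the one with the higher Cox6a2, Cox7a1 and Cox8b, and likewise the higher Cox6b2. The sum of 10 adipocyte markers was 16.1 and 19.1 in Keap1-/- allografts, 18.7 and 6.40 in WT allografts and 1.79 to 2.00 in dishes, with 5 of 9 tested called higher and 1 lower in each line and Lep at background on all arrays. Ucp1, the brown fat uncoupling protein, was not called in either line (adjusted p = 0.113 and 0.988). The part of muscle or fat RNA in the isoform values was not tested.

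**Figure D3:**
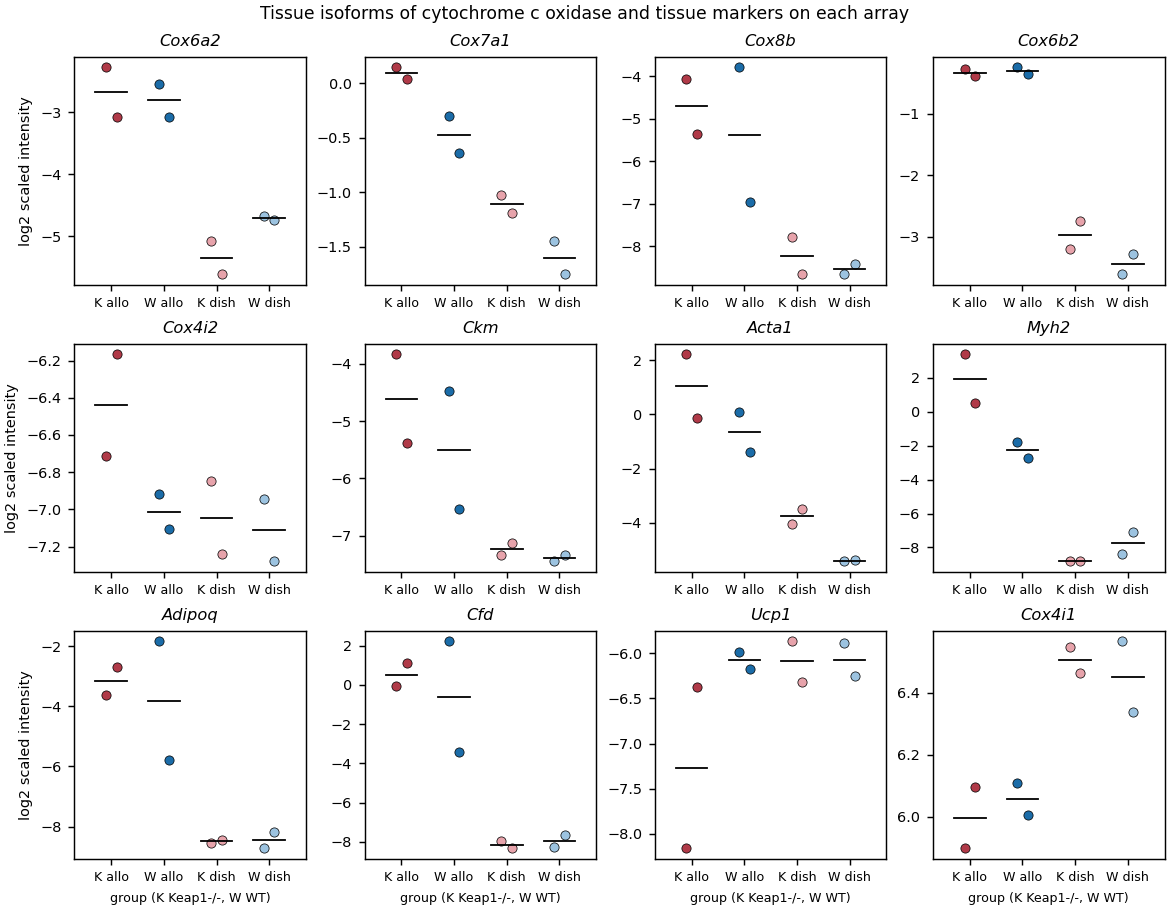
Log2 scaled intensity on each array (points) and group means (bars) of the 5 tissue isoforms of complex IV, of 3 muscle and 3 adipocyte markers and of Cox4i1, with Keap1-/- allografts, WT allografts, Keap1-/- dishes and WT dishes from left to right in every panel and a separate y axis for each. Cox6b2 has its 4 allograft arrays between -0.40 and -0.25, while Cox8b, Ckm, Adipoq and Cfd spread over more than 1 log2 unit within an allograft group; Ckm, Adipoq, Cfd, Myh2, Cox8b and Cox4i2 are not well above background in dishes.

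Other cell types differed between the groups as well. The sum of 9 macrophage markers was 21.0 and 21.1 in Keap1-/- allografts, 77.4 and 87.2 in WT allografts and 1.72 to 2.68 in dishes. The sum of 8 endothelial markers was 10.6 and 11.4 in Keap1-/- allografts, 12.9 and 12.2 in WT allografts and 0.193 to 0.238 in dishes, and that of 4 red cell markers was 7.45 and 12.1 in Keap1-/- allografts, 7.00 and 4.66 in WT allografts and 0.0903 to 0.143 in dishes. The sum of 6 cardiac markers was 0.259 and 0.219 in Keap1-/- allografts, 0.709 and 0.546 in WT allografts and 0.357 to 0.601 in dishes. Fibroblast markers, 10 of 10 tested, summed to 599 and 657 in Keap1-/- allografts, 697 and 724 in WT allografts and 220 to 247 in dishes. All 10 were well above background in every group except Lum in WT dishes. The sum hides large differences of single markers. From dish to allograft 9 were called higher and 1 lower in each line (medians 2.91 in Keap1-/- and 5.26 in WT cells). In dishes 6 were higher and 1 lower in Keap1-/- than in WT cells (median 2.59). In bulk RNA, fewer cells of a type and less RNA per cell cannot be told apart. The part of host cells in the fall of the common subunits was not tested.

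The next question is how the Keap1-/- line compares with the WT line. In dishes 1 of the 81 subunit genes was called higher in Keap1-/- than in WT cells and 4 lower, with a median of 0.07, while 11.4% of all targets were called higher and 9.78% lower, with a median of -0.05. Of the bright targets, 7.59% were higher and 13.3% lower. The members' shares of 1.23% and 4.94% are below both. With the replicate block the counts were 6 higher and 5 lower, with quantile normalization 6 and 2, and without any 1 of the 8 arrays 0 higher and 2 or 3 lower. The 5 called genes were Ndufs7, Ndufb4, Uqcrc2, Atp5d and Atp5l. The 4 genes of complex II and the 16 tested ones of complex IV had no call, with Sdha, Sdhb, Sdhc and Sdhd at 0.17, 0.21, 0.35 and 0.09.

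Ndufs7 stood lowest. It encodes the subunit with the iron-sulfur cluster next to the ubiquinone site of complex I. It was at 4.83 and 4.69 in Keap1-/- dishes against 5.77 and 5.61 in WT dishes, and at 4.22 and 4.14 in Keap1-/- allografts against 4.85 and 4.78 in WT allografts. Under both growth conditions the lines did not overlap. It was 1.91-fold lower in Keap1-/- dishes (-0.93 ± 0.10 SE as log2 difference, adjusted p = 0.00225 by limma) and 1.55-fold lower in Keap1-/- allografts (-0.64 ± 0.10, adjusted p = 0.00454). Both calls held under all 16 alternatives, with adjusted p between 0.00111 and 0.0401 in dishes and between 0.00062 and 0.0295 in allografts.

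Ndufb4, an accessory subunit of the membrane arm, behaved alike. It was at 4.31 and 4.24 in Keap1-/- dishes against 4.97 and 4.88 in WT dishes, and at 4.17 and 4.09 in Keap1-/- allografts against 4.64 and 4.65 in WT allografts. The lines again did not overlap. It was 1.57-fold lower in dishes (-0.65 ± 0.09, limma adjusted p = 0.00458) and 1.43-fold lower in allografts (-0.51 ± 0.09, adjusted p = 0.00547). The dish call ended with no scaling (adjusted p = 0.174) and held under the other 15 alternatives, and the allograft call held under all 16. Ndufs7 and Ndufb4 were the 2 members called lower in both growth conditions, and 0 were called higher in both.

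The promoter windows of these 2 genes are shown because they are the members lower in the Keap1-/- line in both settings, and that of Cox8b because it is a tissue isoform called higher in allografts and at background in dishes. They run from 250 bases before to 50 after the gene start, from RefSeq on assembly GRCm38.p6, 5′ to 3′ on the strand of the gene. Capitals mark matches to the motifs searched on both strands: the consensus of nuclear respiratory factor 1 (NRF1, not a relative of NRF2), AAGATGGC of YY1 and the TATA box letters TATAAA. The first lies at chr16:37654319-37654618 on the minus strand, the second at chr10:80249199-80249498 on the plus strand and the third at chr7:140900397-140900696 on the minus strand.
Ndufb4: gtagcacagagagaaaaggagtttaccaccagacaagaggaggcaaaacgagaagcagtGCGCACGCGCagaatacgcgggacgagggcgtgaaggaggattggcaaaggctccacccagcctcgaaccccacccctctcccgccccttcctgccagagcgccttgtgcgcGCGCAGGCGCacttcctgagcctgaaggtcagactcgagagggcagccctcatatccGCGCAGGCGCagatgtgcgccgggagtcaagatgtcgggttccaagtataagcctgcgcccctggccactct
Ndufs7: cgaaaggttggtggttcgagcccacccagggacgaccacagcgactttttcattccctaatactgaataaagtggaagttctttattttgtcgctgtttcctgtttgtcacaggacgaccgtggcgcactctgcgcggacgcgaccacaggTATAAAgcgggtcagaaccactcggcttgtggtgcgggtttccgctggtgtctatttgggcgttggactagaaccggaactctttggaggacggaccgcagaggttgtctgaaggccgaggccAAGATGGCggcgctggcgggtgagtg
Cox8b: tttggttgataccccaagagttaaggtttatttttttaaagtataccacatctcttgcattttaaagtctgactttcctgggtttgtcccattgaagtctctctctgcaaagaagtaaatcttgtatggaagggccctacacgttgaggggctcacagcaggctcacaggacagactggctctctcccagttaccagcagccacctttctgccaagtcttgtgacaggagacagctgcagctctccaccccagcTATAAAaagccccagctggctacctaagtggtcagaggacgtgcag
The Ndufb4 window holds 3 NRF1 matches, the Ndufs7 window 1 YY1 match and 1 TATA box, and the Cox8b window 1 TATA box. Neither of the first 2 holds the letters TGACNNNGC of the antioxidant response element, the motif known for NRF2.

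Of the 83 members, 68 have windows in that table, 73 in all. NRF1 letters occurred in 18 of the 73 (24.66%) against 4.603% of all 32851 windows, and YY1 letters in 10 (13.7%) against 2.749%. The ETS letters CCGGAAGT, bound by GABPA among others, occurred in 5 (6.849%) against 3.887%. The antioxidant response element occurred in 10 (13.7%) against 12.39%, the MEF2 consensus in 1 (1.37%) against 3.686% and the TATA box in 9 (12.33%) against 13.62%. Where matches overlap, each is counted. These are letter matches in a window and do not show binding.

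The other 3 dish calls depended on the processing. Uqcrc2, a core protein of complex III, was at 4.50 and 4.47 in Keap1-/- dishes against 4.84 and 4.79 in WT dishes (-0.33 ± 0.08, limma adjusted p = 0.0413). Atp5d was at 4.21 and 4.12 against 4.75 and 4.51 (-0.46 ± 0.11, adjusted p = 0.0366). Atp5l, the g subunit of the membrane part, was at 4.71 and 4.61 in Keap1-/- dishes against 4.36 and 4.23 in WT dishes (0.36 ± 0.09, adjusted p = 0.0459). Uqcrc2 and Atp5l kept their call under 4 of 16 alternatives and lost it when any 1 of the 8 arrays was left out. Atp5d kept its call under 5 and, among the fits with 1 array left out, kept it only without the second WT dish array (adjusted p = 0.0412).

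In allografts, 9 subunit genes were called higher in Keap1-/- than in WT tumours and 8 lower, with a median of 0.10. Over all targets 20.5% were called higher and 21.3% lower, with a median of 0.00, and of the bright targets 24.7% were higher and 17.6% lower; the members' shares of 11.1% and 9.88% are below these. With the replicate block 14 were higher and 10 lower, with quantile normalization 5 and 19 and a median of -0.11, with the array median 4 and 3, and with no scaling 0 and 6. Without any 1 array there were 4 to 9 higher and 3 to 7 lower; the higher count was 4 without the first Keap1-/- allograft array and without the second WT allograft array, and 5 without the first WT allograft array. The lower count was 3 or 4 without any 1 of the allograft or Keap1-/- dish arrays. All 17 kept their sign under the 4 scalings.

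**Figure D4:**
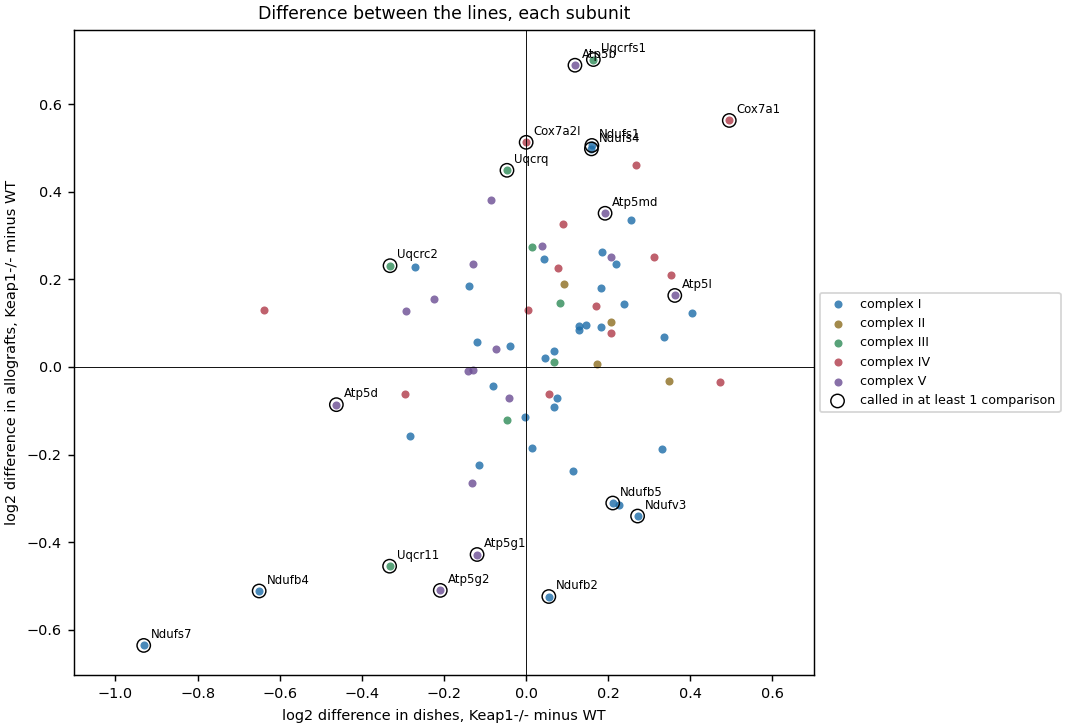
Log2 difference between the lines, Keap1-/- minus WT, in dishes (x) and in allografts (y) for 78 subunit genes on the 75th percentile scale, coloured by complex; Cox4i2 and Cox8b, at background in dishes, are left out, and rings mark genes called in at least 1 of the 2 comparisons. Ndufs7 (-0.93 and -0.64) and Ndufb4 (-0.65 and -0.51) lie farthest to the lower left, while Uqcrfs1 and Atp5b lie at 0.16 and 0.12 in dishes and at 0.70 and 0.69 in allografts; with quantile normalization these 2 lie at 0.52 and 0.45 there.

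Of the genes higher in Keap1-/- allografts, Uqcrfs1 and Atp5b were the most stable, each called under 15 of 16 alternatives and not with no scaling (adjusted p = 0.155 and 0.167). Uqcrfs1 was at 4.56 and 4.44 in Keap1-/- allografts against 3.72 and 3.88 in WT allografts, 1.63-fold higher (0.70 ± 0.11, limma adjusted p = 0.00389). Atp5b, the catalytic beta subunit of the ATP synthase, was at 7.66 and 7.42 against 6.80 and 6.89, 1.61-fold higher (0.69 ± 0.11, adjusted p = 0.00378). Uqcrq, a small subunit of complex III, was at 6.27 and 6.31 against 5.87 and 5.82 (0.45 ± 0.10, adjusted p = 0.013).

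In complex I, Ndufs1 and Ndufs4, both of the peripheral arm, were among the genes called higher. Ndufs1 was at 3.91 and 3.78 in Keap1-/- allografts against 3.38 and 3.30 in WT allografts (0.51 ± 0.11, limma adjusted p = 0.0121). Ndufs4 was at 3.97 and 3.88 against 3.29 and 3.57 (0.50 ± 0.12, adjusted p = 0.0173). The groups did not overlap for either gene, and the calls held under 11 of 16 alternatives for Ndufs1 and 12 for Ndufs4. Cox7a2l, which joins complexes III and IV into supercomplexes, was at 3.19 and 2.90 against 2.51 and 2.55 (0.51 ± 0.12, adjusted p = 0.0157). Cox7a1 was 1.48-fold higher in allografts (limma adjusted p = 0.0386), and its difference in dishes was 0.49 ± 0.17 (adjusted p = 0.0922). Cox6a2 was not called in allografts (0.13 ± 0.33, adjusted p = 0.796). The muscle marker sums of the allograft groups overlapped, at 25.2 and 5.11 in Keap1-/- and 5.68 and 1.67 in WT tumours. On the dish arrays they were 0.592 to 0.629. The part of muscle RNA in the Cox7a1 difference was not tested. Atp5md, a small membrane subunit, was 1.28-fold higher (adjusted p = 0.0266) and lost the call under 9 of 16 alternatives.

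The genes called lower in Keap1-/- allografts were led, after Ndufs7, by Ndufb2 at 3.60 and 3.46 against 4.05 and 4.07 in WT allografts (-0.52 ± 0.09, limma adjusted p = 0.00633, called under all 16 alternatives). Both c subunit genes were lower: Atp5g2 was at 4.63 and 4.62 against 5.22 and 5.05 (-0.51 ± 0.14, adjusted p = 0.0314), and Atp5g1 at 3.51 and 3.49 against 3.98 and 3.87 (-0.43 ± 0.13, adjusted p = 0.0442), each called under 7 of 16. Uqcr11, a small subunit of complex III, was 1.37-fold lower (adjusted p = 0.0203), and Ndufv3 and Ndufb5 were 1.27-fold and 1.24-fold lower. Ndufv3 turned to 0.32, with no call, when the median over its probes was taken. The Sdh genes were not called, with values of 0.01, 0.10, -0.03 and 0.19 for Sdha, Sdhb, Sdhc and Sdhd.

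8 of the 9 genes higher in Keap1-/- than in WT allografts (all but Cox7a1) were also called lower in WT allografts than in WT dishes. Among all 81 members, 64 were called lower in WT growth and 56 in Keap1-/- growth, and among bright targets 61.5% and 49.2%. Most members would thus show the WT fall. Both comparisons use the WT allograft arrays, so a low value there gives both. In Keap1-/- cells, 4 of these 8 were called lower in allografts than in dishes as well (Uqcrfs1, Ndufs1, Atp5b and Atp5md), while Ndufs4, Uqcrq and Cox7a2l, at -0.24, -0.23 and 0.16, were not called.

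A test of whether the change from dish to allograft differs between the lines, the interaction of line and growth, called 4 members in each direction, 4.94% each, where 15.8% of all targets were called positive and 17% negative, and 21.2% and 10.7% of the bright ones. The median was 0.04, equal to the 0.04 of all targets. With quantile normalization 0 were positive and 20 negative (median -0.28), with the array median 4 and 0 (0.20), with no scaling 0 and 1 (-0.31) and with the replicate block 9 and 6, so the balance of directions depends on the scaling. The positive ones were Atp5b, Uqcrc2, Uqcrfs1 and Uqcrq, 3 of them from the 8 genes of complex III, and the negative ones Ndufv3, Ndufb2, Ndufb8 and Ndufb5, all of complex I. Uqcrc2 was at 4.32 and 4.26 in Keap1-/- allografts against 4.50 and 4.47 in Keap1-/- dishes, and at 4.03 and 4.09 in WT allografts against 4.84 and 4.79 in WT dishes, so its change was -0.19 in Keap1-/- and -0.75 in WT cells. Ndufb8 was at 5.14 and 5.02 against 6.04 and 5.92 in Keap1-/- cells, and at 5.41 and 5.38 against 5.83 and 5.68 in WT cells, so its change was -0.90 and -0.36, the second turning to 0.34 with quantiles and 0.03 with no scaling. None of the 8 was called under all 16 alternatives. Leaving out 1 array left 0 to 4 positive and 0 to 3 negative, with 0 of either without the first Keap1-/- dish array.

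Of the 81 genes, 16 have several tested probes. Their calls never opposed each other except in Ndufv3, whose brightest probe fell in Keap1-/- cells (-0.47 ± 0.08, limma adjusted p = 0.00363) while another was called higher. The 3 Ndufv3 probes were at 2.06 and 1.99, 0.08 and -0.06, and -0.95 and -1.02 in Keap1-/- allografts, against 2.52 and 2.47, -0.60 and -0.65, and -1.35 and -1.34 in Keap1-/- dishes. The direction for Ndufv3 therefore depends on the probe, and which transcript each probe reads was not tested. In other genes some probes were called and others not. These were Atp5b, Ndufa11 and Ndufa12 in dishes, Ndufa11 in WT growth and Atp5b in the interaction. The probes of Atp5b were also widely spread in Keap1-/- growth, and those of Atp5a1 in the interaction.

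Genes that serve the chain and fall outside the symbol rule were read from lists. Most are not subunits, but the electron carrier list includes Cyc1, cytochrome c1 of complex III, which the rule does not match. Of 15 complex I assembly factors tested, 13 were called lower in allografts and 0 higher in Keap1-/- cells (median -0.81), and the same numbers in WT cells (median -0.75); with quantile normalization 12 and 10 were lower and 0 and 1 higher, and with no scaling 8 and 5 were lower and 0 higher. Over all targets 29.1% were lower in Keap1-/- cells and 32.2% in WT cells, and over bright targets 49.2% and 61.5%. Ndufaf2, an assembly chaperone, was 2.54-fold lower in Keap1-/- cells and 2.06-fold lower in WT cells (limma adjusted p = 8.56e-05 and 0.000214). Of 27 assembly factors of complexes II to V, 15 were lower and 1 higher in Keap1-/- cells, and 19 lower and 1 higher in WT cells, with medians of -0.49 and -0.69. With quantile normalization 13 were lower in each line and 4 and 3 higher, and with no scaling 12 and 5 were lower and 0 and 2 higher. Coa7 was 2.72-fold and 3.35-fold lower and Cox10, which makes the heme of complex IV, 2.43-fold and 2.32-fold lower, and all 6 of these differences kept their call under the 4 scalings.

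Of 20 electron carriers and other chain genes, 14 were lower and 3 higher in Keap1-/- cells and 13 lower and 1 higher in WT cells, with medians of -0.46 and -0.62. With quantile normalization 10 were lower in each line and 3 and 4 higher, and with no scaling 8 and 6 were lower and 3 and 1 higher. Cycs, cytochrome c, was at 5.38 and 5.40 in Keap1-/- allografts against 6.14 and 6.07 in Keap1-/- dishes, and at 4.89 and 4.99 in WT allografts against 6.27 and 6.22 in WT dishes. It was 1.64-fold and 2.47-fold lower and called under all 4 scalings in both lines. Coq8a, a kinase-like protein of ubiquinone synthesis, was the largest rise, 8.41-fold in Keap1-/- and 13.9-fold in WT cells. Of 22 genes of the citrate cycle and pyruvate entry, 18 were lower and 2 higher in Keap1-/- cells and 18 lower and 1 higher in WT cells, with medians of -0.45 and -0.76, and with 10 lower in each under quantile normalization and 7 and 8 with no scaling. Beside these lists, the median of all targets was 0.03 and -0.02 and that of bright targets -0.33 and -0.53. The shares called lower were 29.1% and 32.2% of all targets and 49.2% and 61.5% of bright ones, in Keap1-/- and WT cells. All 5 list medians stayed negative in both lines under the 4 scalings. Pdha1, of the pyruvate dehydrogenase, was at 1.72 and 1.73 in WT allografts against 3.61 and 3.61 in WT dishes, 3.69-fold lower (limma adjusted p = 1.11e-05), and 1.23-fold lower in Keap1-/- cells (adjusted p = 0.0169), where the call ended with quantiles (0.52) and with no scaling (0.297).

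Of 17 genes of mitochondrial biogenesis and mitochondrial DNA, 13 were lower in each line, with 1 higher in Keap1-/- and 2 higher in WT cells, and medians of -0.58 and -0.68. With quantile normalization 10 and 7 were lower, and with no scaling 9 and 5. Over all targets 29.1% were called lower in Keap1-/- cells and 32.2% in WT cells, and over bright targets 49.2% and 61.5%. Ppargc1a, the coactivator PGC-1 alpha, was at -3.05 and -3.68 in Keap1-/- allografts against -0.39 and -0.59 in Keap1-/- dishes, and at -3.15 and -3.58 in WT allografts against -0.97 and -1.03 in WT dishes. It was 7.31-fold lower in Keap1-/- and 5.13-fold lower in WT cells (limma adjusted p = 0.000164 and 0.00033). Its relative Ppargc1b went the other way, at -0.84 and -0.86 in Keap1-/- allografts against -2.62 and -2.54 in Keap1-/- dishes, and at -1.54 and -1.55 in WT allografts against -3.38 and -3.45 in WT dishes. It was 3.32-fold and 3.66-fold higher (adjusted p = 2e-05 and 1.28e-05). Both genes kept their calls under all 4 scalings. Twnk, the helicase of mitochondrial DNA, was 2.33-fold and 2.39-fold lower.

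Between the lines the shares of all targets called were 11.4% higher and 9.78% lower in dishes and 20.5% and 21.3% in allografts, against which the counts of these lists are to be read. In dishes 5 complex I assembly factors were lower in Keap1-/- cells and 0 higher (median -0.23, and 2 lower with quantile normalization), and in allografts 2 were lower and 0 higher. The assembly factors of complexes II to V had 2 higher and 2 lower in dishes and 5 higher and 1 lower in allografts. The electron carriers had 2 and 2 in dishes and 5 and 1 in allografts. The citrate cycle list had 2 higher and 4 lower in dishes and 5 and 3 in allografts, and the biogenesis list 2 and 2, and 3 and 4. Sqor, which feeds electrons from sulfide into ubiquinone, was at 2.50 and 2.38 in Keap1-/- dishes against 1.06 and 0.96 in WT dishes, and at 3.33 and 3.37 in Keap1-/- allografts against 0.92 and 0.70 in WT allografts, 2.69-fold and 5.82-fold higher (limma adjusted p = 0.000564 and 3.28e-05). Pdk4, a kinase that inactivates pyruvate dehydrogenase, was at -2.98 and -2.96 in Keap1-/- dishes against -6.24 and -6.69 in WT dishes, where 1 of 2 arrays was well above background, 11.3-fold higher (adjusted p = 0.000463). Ppargc1b was 1.78-fold higher in Keap1-/- dishes and 1.62-fold higher in Keap1-/- allografts (adjusted p = 0.00146 and 0.00128), the second ending with no scaling (0.105). Gpd2, the mitochondrial glycerol phosphate dehydrogenase, was at 2.06 and 2.10 in Keap1-/- dishes against 2.82 and 2.86 in WT dishes, and at 2.94 and 2.75 in Keap1-/- allografts against 1.52 and 1.56 in WT allografts, so it was 1.69-fold lower in dishes and 2.47-fold higher in allografts (adjusted p = 0.00383 and 0.000213), the first ending with no scaling (0.127).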

How the data were processed

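Members and gene lists were chosen with earlier results of these data known. Total RNA from 8 samples was labelled with Cy3 and hybridised to 1-colour Agilent arrays, 1 sample each. The authors deposited the scanner output: per the file headers, the processed signal is an intensity from which the software subtracted background and a spatial trend. Each array's log2 intensity was set relative to its 75th percentile. Per the file headers the design is on build mm9; no coordinate of it is used.

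Gene symbols came from matching accessions of 26690 of the 41174 probes to RefSeq on GRCm38.p6. A target was tested, in limma 3.58.1 (R 4.3.3), when some group had both its arrays well above background, with a model of group means with 4 residual degrees of freedom. A gene is read by its brightest tested probe. Named with values are, per comparison and complex, up to 3 called members with the largest rise and up to 3 with the largest fall, the Sdh genes, the tissue isoforms, members with opposite calls between comparisons or probes, those called in the interaction, and up to 3 called genes per list and comparison. Other genes were named after their values were seen: Atp5e, Ckm, Cox6b1, Cox7c, Myh4, Ndufa13, Ndufa3, Ndufa9, Ucp1, Uqcrh.

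The replicate number is the slide in the headers, so the replicate block is the slide block. Same-numbered samples deviated together over all targets (correlations 0.247 to 0.429), while over the members alone the correlations ran from -0.21 to 0.72. The numbers were taken to pair the samples in the replicate block only. The main fit leaves the block out, so its p-values and calls ignore any such pairing. Alternatives were the scaling, normexp, the filter, the probe choice, the block, and each array left out. Normexp used the median signal, chosen after seeing that the files hold no mean signal. Promoter letters came from RefSeq on GRCm38.p6. The fit was tested on simulated data. 1 member is counted but not reported by name here, and the figures with gene names leave it out.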

Additional observations from a re-analysis of the deposited data

Results flagged for a closer look

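The change from dish to allograft differed between the Keap1-/- and WT lines for 8 of the 81 subunit genes, by the interaction term of limma at an adjusted p below 0.05; 15.8% of all targets passed that test with a positive and 17% with a negative value. The values are the log2 change in Keap1-/- cells minus that in WT cells. They were 0.57 for Atp5b (adjusted p = 0.0342), 0.56 for Uqcrc2 (0.0157), 0.54 for Uqcrfs1 (0.0447) and 0.50 for Uqcrq (0.0386), where the fall was smaller in Keap1-/- cells. They were -0.52 for Ndufb5 (0.0223), -0.54 for Ndufb8 (0.0355) and -0.58 for Ndufb2 (0.0203), where the fall was larger in Keap1-/- cells. For Ndufv3 it was -0.61 (0.0116), with a call in Keap1-/- cells (-0.47) and none in WT cells (0.15). Ndufv3 kept its call under 13 of 16 alternatives, Uqcrc2 under 10, Ndufb2 under 9, Ndufb5 and Ndufb8 under 6, Atp5b under 5, and Uqcrfs1 and Uqcrq under 4. The tested probes of Atp5b and of Ndufv3 were not all called alike in the interaction. With quantile normalization 0 of the 4 positive calls were kept and 20 members were called negative, and with the array median 0 of the 4 negative calls were kept. With no scaling 0 positive calls and 1 negative call were kept.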

How the results depend on the processing

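The limits are 2 arrays a group, 1 line per genotype, bulk tumour RNA and a zero point that differs between scalings; 2 tested genes were not well above background on all arrays. The genes named by rule in a comparison, mostly those with the largest called changes, gave 1800 values under an alternative. Of these, 1510 kept direction and side of the threshold, 264 kept direction and lost the call, 13 gained it and 13 turned sign. This tally does not stand for all members. Of the 64 called lower in WT growth, 37 had the opposite sign with quantiles and 11 with no scaling. The cause of these changes was not tested. In dishes 1 subunit gene was higher in Keap1-/- cells and 4 lower (median 0.07). The higher count was 0 with the array median, with no scaling and with no filter, 2 with the median over probes, 5 with the filter on all 8 arrays and over every probe, and 6 with quantiles and with the replicate block. The lower count was 2 with quantiles, normexp and no filter and 1 with no scaling, and the median was -0.092 with the array median, 0.17 with quantiles and 0.20 with no scaling. In allografts (9 higher, 8 lower, median 0.10) the higher count was 4 with the array median, 5 with quantiles, 0 with no scaling and 14 with the replicate block, the lower count 3, 19 and, with no filter, 5, and the median -0.11 with quantiles and -0.13 with no scaling. From dish to allograft in Keap1-/- cells (56 lower) 26 were lower with quantiles and 22 with no scaling, and the median of -0.46 became -1.33 with the array median and -0.17 with quantiles. In WT cells (4 higher, 64 lower) the higher count was 1 with the array median and 20 with quantiles, the lower count 8 with quantiles and 1 with no scaling, and the median -1.54, 0.11 and -0.13 with the array median, quantiles and no scaling. For the interaction (4 each way, median 0.04) the positive count was 0 with quantiles and with no scaling, 1 with normexp and with no filter, and 9 with the replicate block, the negative count 0 with the array median, 20 with quantiles, 1 with no scaling and 2 with no filter, and the median 0.20, -0.28 and -0.31. The replicate block, the same as the slide, gave 6 higher and 5 lower in dishes, 14 and 10 in allografts, 4 and 59 in Keap1-/- growth, 4 and 69 in WT growth and 9 and 6 in the interaction. Within slides the member medians were 0.06 and 0.08 in dishes, 0.12 and 0.05 in allografts, -0.46 and -0.45 in Keap1-/- growth and -0.54 and -0.46 in WT growth.

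With 1 array left out, the dish counts were 0 higher and 2 to 3 lower (median 0.02 to 0.11), those in allografts 4 to 9 and 3 to 7 (0.05 to 0.10), those of Keap1-/- growth 3 to 4 and 36 to 55 (-0.50 to -0.43), those of WT growth 3 to 4 and 44 to 63 (-0.54 to -0.45) and those of the interaction 0 to 4 and 0 to 3 (-0.01 to 0.07). Of the 64 members called lower in WT growth, 26 kept their sign under all 4 scalings, and of the 56 in Keap1-/- growth all but Uqcrh (0.042 with quantiles) did. Among the genes named by rule in a comparison, those that turned sign were Cox7a2l in Keap1-/- growth with the array median (-0.71) and, in WT growth with quantiles, Sdhb (0.11), Sdhc (0.29), Cox7b (0.016), Cox8a (0.11), Atp5md (0.038), Cox7a2l (0.10), Uqcrq (0.0092) and Cox4i2 (-0.87). With no scaling Sdhb (0.0088) and Cox7a2l (0.033) turned there, with the array median Cox4i2 (-0.92), and with the median over probes the interaction of Ndufv3 (0.33). The share of higher calls among all calls was 53.7%, 49.0%, 55.2% and 52.7% in dishes, allografts, Keap1-/- growth and WT growth, against 37.3%, 48.4%, 27.3% and 25.9% with the array median, 56.4%, 44.2%, 45.9% and 47.0% with quantiles and 76.4%, 30.5%, 62.2% and 78.5% with no scaling.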
